A study of Arabidopsis thaliana with 72 samples.

Results

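The earliest root response to citral in this series was read from the 6 root libraries of the 1 h time point, 3 from seedlings given citral and 3 from seedlings given ethanol alone, out of 72 RNA-seq libraries in all. The libraries were chosen by their organ, agent and time labels. Arabidopsis thaliana seedlings had grown for 14 days on agar with 1% sucrose, and no line, mutant or transgene is named in the labels. The treated roots had received 202 µM citral and the control roots 0.1% ethanol, the solvent, for the same 1 h. The series design calls 202 µM the concentration of half-maximal inhibition. In contrast, the protocol text of these samples speaks of t-chalcone at 21 µM, added 7 h into a day of 16 h light and 8 h dark. Citral was followed here because the title, the design text and each library's agent label give it, and the discrepancy remains unresolved. It is not stated whether the 3 libraries of a group are separate cultures. The p-values thus measure only the spread between libraries of a group, which may be technical. For the root comparisons that spread was estimated over all 36 root libraries in 12 groups.

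Citral, the scent of lemongrass oil, consists of 2 isomeric monoterpene aldehydes, geranial and neral. Both are unsaturated aldehydes whose carbonyl and neighbouring double bond react readily with thiols such as glutathione. Plants meet compounds of this kind in steps. Reductases and cytochrome P450 enzymes modify the molecule, glutathione transferases and glucosyltransferases attach a carrier group, and transporters move the conjugate into the vacuole or out of the cell. Reactive aldehydes are also known to damage proteins and to switch on heat shock genes. In roots citral is known for acting on microtubules and growth, which makes genes of the cytoskeleton, the cell cycle and the root hairs of interest beside those of detoxification.

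Recovered reads per library were 3.25, 3.37 and 3.38 M with citral and 17.8, 20.2 and 17.1 M with ethanol. Every citral library is shallower than every ethanol library, so that depth and group cannot be told apart from the labels. Counts of calls over all genes and of some lists are therefore also given with each of the 6 libraries thinned to 3.25 M reads. Lists without such a count can lose calls. Higher calls went from 18 to 15 for abscisic acid and from 6 to 4 for salicylic acid and for ethylene. They went from 3 to 1 for DNA damage, aquaporins and phenylpropanoids, and from 9 to 10 for stress-induced ERF factors. Values are given as CPM, the reads of a gene per 1000000 reads after scaling between libraries. At 1 CPM a gene rests on about 3 reads in a citral library and 17 to 20 reads in an ethanol library. In the table, 11.8 to 12.2% of loci stood at the lowest value with citral and 4.05 to 4.76% with ethanol. Such a value, called the floor here, stands for 0 or 1 read. Several genes named below, ATAF1, APR2, HSP17.4, RRTF1, WRKY53, PUP10, ARR6, TUA1, TUB1, RPA2, RVE1 and BOA among them, overlap a neighbour on the opposite strand. Whether strand was used in counting is not given in the sources used here, and reads of such a pair cannot be told apart without it. The organ labels held: 7 marker genes of green tissue summed to 119.5 to 144.6 CPM, by depth alone, in the citral roots and 183.3 to 230.1 CPM in the ethanol roots, against at least 7960.2 CPM in every shoot library of 1 h. Of these 7 markers only LHCB3 passed the test between the root groups. LHCA1, RBCS1A and RCA did not pass, though by depth alone they were lower with citral without overlap, while RBCS2B, RBCS3B and LHCB1.1 overlapped. LHCB3 was lower with citral. Without citral replicate 1 or 3 it stayed lower, at log2 -0.78 and -0.87, but missed the threshold (limma, adjusted p = 0.135 and 0.0982). The same held with limma-trend at pseudocounts of 0.5 and 0.1 (adjusted p = 0.129 and 0.123).

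A large share of the measured root transcriptome differed between the citral and ethanol libraries at 1 h. Of 20147 genes tested, 4539 were higher (22.5%) and 4054 lower (20.1%) with citral, so that 42.7% were called in either direction. A gene was called where limma's adjusted p was under 0.05. Most of these changes were under 2-fold, and 3423 of the called genes moved by less than 1.5-fold. A change of at least 2-fold was called upward for 1707 genes (8.47%) and downward for 1357 (6.74%). The median log2 difference over all genes tested was -0.027. The fit gave ethanol replicates 1, 2 and 3 quality weights of 0.418, 3.07 and 0.546, so that replicate 2 counted most in the ethanol mean. Without library weights 7085 genes were called, and 5922 were called when ethanol replicate 2 was left out. A fit of the 6 libraries alone called 7673. The share also depends on the model, since limma-trend called 5159 and 5132 genes at pseudocounts of 0.5 and 0.1. With every library thinned to the same read number, 34.8% of genes were called, and 1477 of the 1707 and 1226 of the 1357 were still called in the same direction. Higher calls made up 52.8% of all calls in this scaling, 44.3% with quantile normalization and 38.6% with the scaling the authors left in the table, which moved the median of all genes by -0.12 on the log2 scale. Small changes near that size can take their direction from the scaling, and the accounts below lead with larger ones. List counts at 1 h are to be set beside the 22.5% higher and 20.1% lower of all genes.

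**Figure D1:**
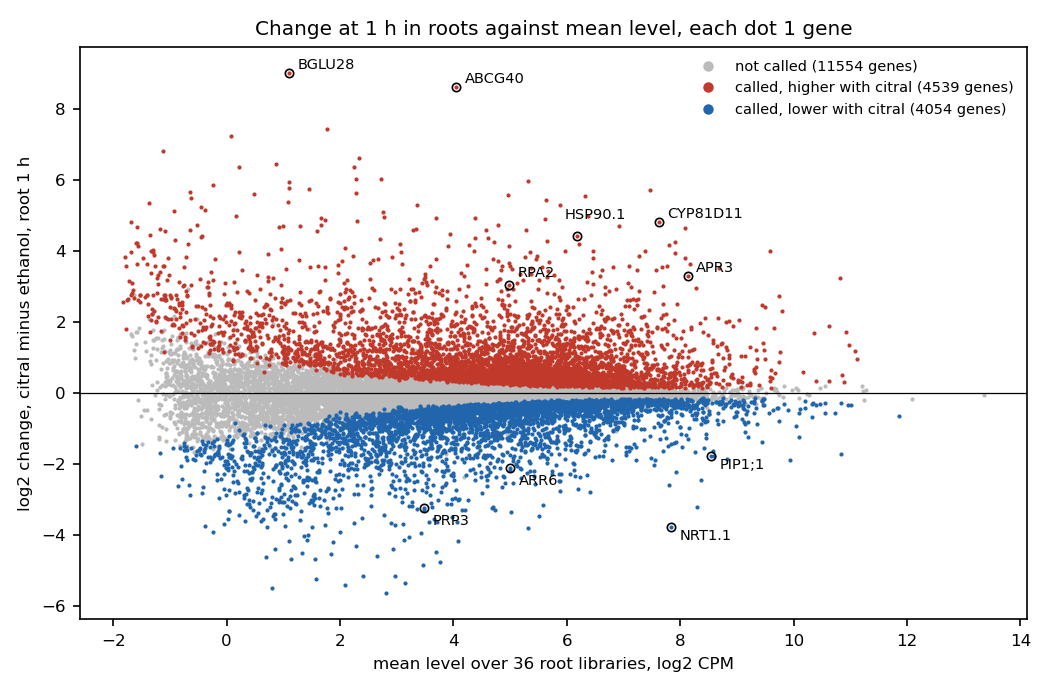
Change of each of 20147 genes in roots at 1 h, citral minus ethanol on the log2 scale, against the gene's mean level over 36 root libraries in log2 CPM. Red dots are the 4539 genes called higher, blue dots the 4054 called lower and grey dots the rest. ABCG40 and BGLU28 stand above log2 8, while NRT1.1 is the lowest of the labelled genes at -3.77.

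Genes of chemical defence held many of the largest increases. Among them the exporter ABCG40 and the cytochrome P450 gene CYP81D8 rose from a few CPM to above 100 CPM. Of 9 exporters of foreign compounds 8 rose, as did all 11 tested of 14 listed glucosyltransferases, 17 of 35 glutathione transferases and 12 of 21 oxidoreductases, against 22.5% of all genes. None of the exporters or glucosyltransferases fell, while 6 glutathione transferases and 4 oxidoreductases did. The list medians were log2 2.22, 3.86, 0.50 and 1.14 in that order. Each of these 4 lists had its higher calls also with thinned libraries, at 8, 10, 17 and 12 members.

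The gene starts of 3 strongly raised members are shown because TGACG, the core that TGA-type bZIP factors bind, is the motif by which such genes are known to be switched on. Each line gives 250 bases before the annotated start, read 5′ to 3′ on the gene's strand from RefSeq TAIR10.1, with the motif in capitals on whichever strand it lies. The windows are chr1:26338819-26339068, chr1:5338327-5338576 and chr3:10790554-10790803, all on the minus strand.
GSTU11: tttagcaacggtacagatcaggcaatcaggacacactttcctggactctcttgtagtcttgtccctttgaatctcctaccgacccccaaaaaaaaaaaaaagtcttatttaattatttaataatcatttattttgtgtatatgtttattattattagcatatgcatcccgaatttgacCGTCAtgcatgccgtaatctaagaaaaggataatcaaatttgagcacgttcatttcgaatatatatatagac
ABCG40: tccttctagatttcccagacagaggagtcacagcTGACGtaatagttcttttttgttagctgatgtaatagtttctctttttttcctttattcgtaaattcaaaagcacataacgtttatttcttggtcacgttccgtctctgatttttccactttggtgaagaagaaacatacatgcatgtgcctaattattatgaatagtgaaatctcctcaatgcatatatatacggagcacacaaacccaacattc
CYP81D11: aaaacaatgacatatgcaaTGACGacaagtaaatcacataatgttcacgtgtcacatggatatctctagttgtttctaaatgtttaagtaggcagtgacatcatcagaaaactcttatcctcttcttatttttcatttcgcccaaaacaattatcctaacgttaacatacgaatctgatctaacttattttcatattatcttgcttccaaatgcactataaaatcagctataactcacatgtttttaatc
The motif begins 72 bases before the start of GSTU11, 216 before that of ABCG40 and 231 before that of CYP81D11. It stands in 24 of the 48 promoters of raised members of the 4 detoxification lists, in 31 of the 79 promoters of all members, and in 19.1% of 21969 promoters of the same length. Among genes raised at least 2-fold the share was 25.2%, and among those lowered at least 2-fold 18.6%. A match describes these letters only.

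Carbonyl reduction comes first in the path. AER (AT5G16970), the alkenal reductase that saturates the double bond of unsaturated aldehydes, measured 549, 444 and 488 CPM with citral and 29.9, 30.1 and 33.0 CPM with ethanol. All 3 citral libraries lay far above the ethanol libraries, and the gene was 16.04-fold higher (log2 difference 4.004, SE 0.085, adjusted p = 4.5e-32). Its neighbours in the same gene cluster followed. AT5G16980, another zinc-binding dehydrogenase, measured 59.6, 41.0 and 36.4 CPM with citral and 1.48, 0.879 and 0.569 CPM with ethanol, and AT5G16960, also of that family, 9.29, 8.53 and 11.5 CPM with citral and 0.170, 0.0244 and 0.114 CPM with ethanol, the second of these at the floor. Groups did not overlap for either gene, and their log2 differences were 5.63 ± 0.27 and 7.23 ± 0.61 (SE). AT5G17000, from the same cluster, rose from 20.6, 22.5 and 24.4 CPM to 285, 303 and 285 CPM (log2 difference 3.69, SE 0.089, adjusted p = 2.9e-30). These genes resemble each other in sequence, and how the authors' counting treated reads that fit several of them is not given in the sources used here.

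AT1G60750, annotated as an NAD(P)-linked oxidoreductase, was among the largest increases of the whole table. It measured 721, 613 and 632 CPM with citral and 8.12, 10.8 and 9.21 CPM with ethanol, a 63.1-fold difference (log2 difference 5.98, SE 0.10, adjusted p = 3.1e-34). OPR1 (AT1G76680), a 12-oxophytodienoate reductase that accepts unsaturated carbonyls, was already high with ethanol at 363, 347 and 378 CPM and stood at 5607, 5949 and 5428 CPM with citral. Its log2 difference was 4.01 ± 0.063 (SE). A pair of cytochrome P450 genes widely used as markers of the response to foreign compounds rose as well.

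CYP81D11 (AT3G28740) measured 1726, 1706 and 1439.8 CPM with citral and 64.6, 56.6 and 61.7 CPM with ethanol. CYP81D8 (AT4G37370) measured 240.4, 170.0 and 219.7 CPM with citral and 4.37, 4.25 and 4.32 CPM with ethanol. Both were more than 20-fold higher in every citral library than in any ethanol library, at log2 4.81 ± 0.075 and 5.58 ± 0.17 (SE). Aldehyde dehydrogenases, which oxidise aldehydes to acids, were divided. ALDH7B4 (AT1G54100), a turgor-responsive member, rose from 431, 384 and 359 CPM to 1010.0, 937 and 927 CPM (log2 difference 1.31, SE 0.071, adjusted p = 1.7e-18), and the 4 oxidoreductases called lower were all of this family. ALDH2C4 (AT3G24503), which acts on cinnamyl aldehydes, fell from 474, 459.9 and 439.9 CPM to 218, 215 and 187 CPM (log2 difference -1.15, SE 0.079, adjusted p = 2.4e-15).

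Glutathione transferases went both ways. All of the 17 that rose but GSTF8 belong to the tau class, the plant class best known for foreign compounds, while the 6 that fell are 3 of the tau and 3 of the phi class, with log2 differences of the family from -1.61 to 6.62. GSTU24 (AT1G17170) measured 1962, 1738 and 1770.3 CPM with citral and 71.8, 69.8 and 87.8 CPM with ethanol, with no overlap and a 25.2-fold difference (log2 difference 4.65, SE 0.081, adjusted p = 3.8e-33). GSTU11 (AT1G69930) measured 90.4, 75.1 and 96.7 CPM with citral and 1.42, 0.782 and 0.967 CPM with ethanol, and GSTU5 (AT2G29450) measured 483, 465 and 386 CPM with citral and 37.1, 21.3 and 25.3 CPM with ethanol. Their log2 differences were 6.62 ± 0.23 and 4.28 ± 0.18 (SE). In the other direction GSTU28 measured 4.64, 5.12 and 1.64 CPM with citral and 8.46, 11.5 and 11.9 CPM with ethanol, GSTU27 33.6, 32.1 and 31.5 CPM with citral and 88.8, 80.5 and 92.5 CPM with ethanol and GSTF14 13.6, 27.0 and 19.7 CPM with citral and 48.1, 42.9 and 72.5 CPM with ethanol. Groups did not overlap for these either, and GSTU27 had the smallest p of the 3 (log2 -1.35 ± 0.13, SE, adjusted p = 3.5e-11). GSTU26 is given as a member that did not pass: it measured 104, 90.13 and 76.7 CPM with citral and 97.2, 79.8 and 61.2 CPM with ethanol.

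Genes of conjugation to glucose and of export were among the largest increases. UGT73C5 (AT2G36800), a glucosyltransferase known for inactivating a fungal toxin and brassinosteroids, measured 37.9, 40.3 and 42.6 CPM with citral and 0.454, 0.195 and 0.171 CPM with ethanol. The ethanol libraries held only a few reads of it, and the log2 difference was 7.43 ± 0.43 (SE). UGT74E2 (AT1G05680), which glucosylates indole-3-butyric acid, measured 745, 642 and 673 CPM with citral and 20.5, 13.5 and 16.8 CPM with ethanol, a 47.2-fold difference (log2 difference 5.56, SE 0.11, adjusted p = 6.3e-30). AT2G36780, of the same family, measured 10.0002, 9.56 and 13.1 CPM with citral, while 2 of its 3 ethanol libraries were at the floor. The pleiotropic drug resistance transporter ABCG40 (AT1G15520), known for importing abscisic acid into cells, measured 1045, 615 and 762 CPM with citral and 2.67, 1.76 and 3.24 CPM with ethanol. It was 389.7-fold higher with citral, the second largest called increase by the rule for named genes (log2 difference 8.61, SE 0.30, adjusted p = 1.2e-19). AT2G04050, a MATE family efflux carrier, measured 6.07, 4.10 and 6.23 CPM with citral and 0.568, 0.391 and 0.227 CPM with ethanol (log2 difference 3.75, SE 0.42, adjusted p = 1.4e-09).

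Among the factors known to switch on such genes, those of the ATAF clade of NAC proteins rose and some TGA factors fell. Of 11 regulators tested 5 rose and 3 fell, and their median of log2 0.05 turned negative, to -0.07, under the authors' scaling. ATAF2 (AT5G08790) measured 1232, 1250.2 and 1146 CPM with citral and 115, 105 and 128 CPM with ethanol, NAC102 (AT5G63790) measured 1031, 1069 and 1012 CPM with citral and 138, 124 and 138 CPM with ethanol, and ATAF1 (AT1G01720) measured 389, 388 and 399 CPM with citral and 59.4, 56.6 and 53.1 CPM with ethanol. No groups overlapped, and the log2 differences were 3.48 ± 0.074, 3.03 ± 0.068 and 2.79 ± 0.071 (SE). SCL14 (AT1G07530), the GRAS protein that in Arabidopsis works with TGA factors on detoxification genes, rose less, from 68.6, 58.3 and 56.9 CPM to 88.9, 91.2 and 94.1 CPM (log2 difference 0.63, SE 0.074, adjusted p = 4.0e-09). TGA3 (AT1G22070) measured 28.6, 28.3 and 27.9 CPM with citral and 64.2, 57.3 and 51.7 CPM with ethanol, so that its transcript was lower with citral (log2 difference -1.01, SE 0.11, adjusted p = 6.5e-10). TGA4 and TGA2 were lower too, at log2 -0.81 ± 0.11 and -0.49 ± 0.13 (SE).

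**Figure D2:**
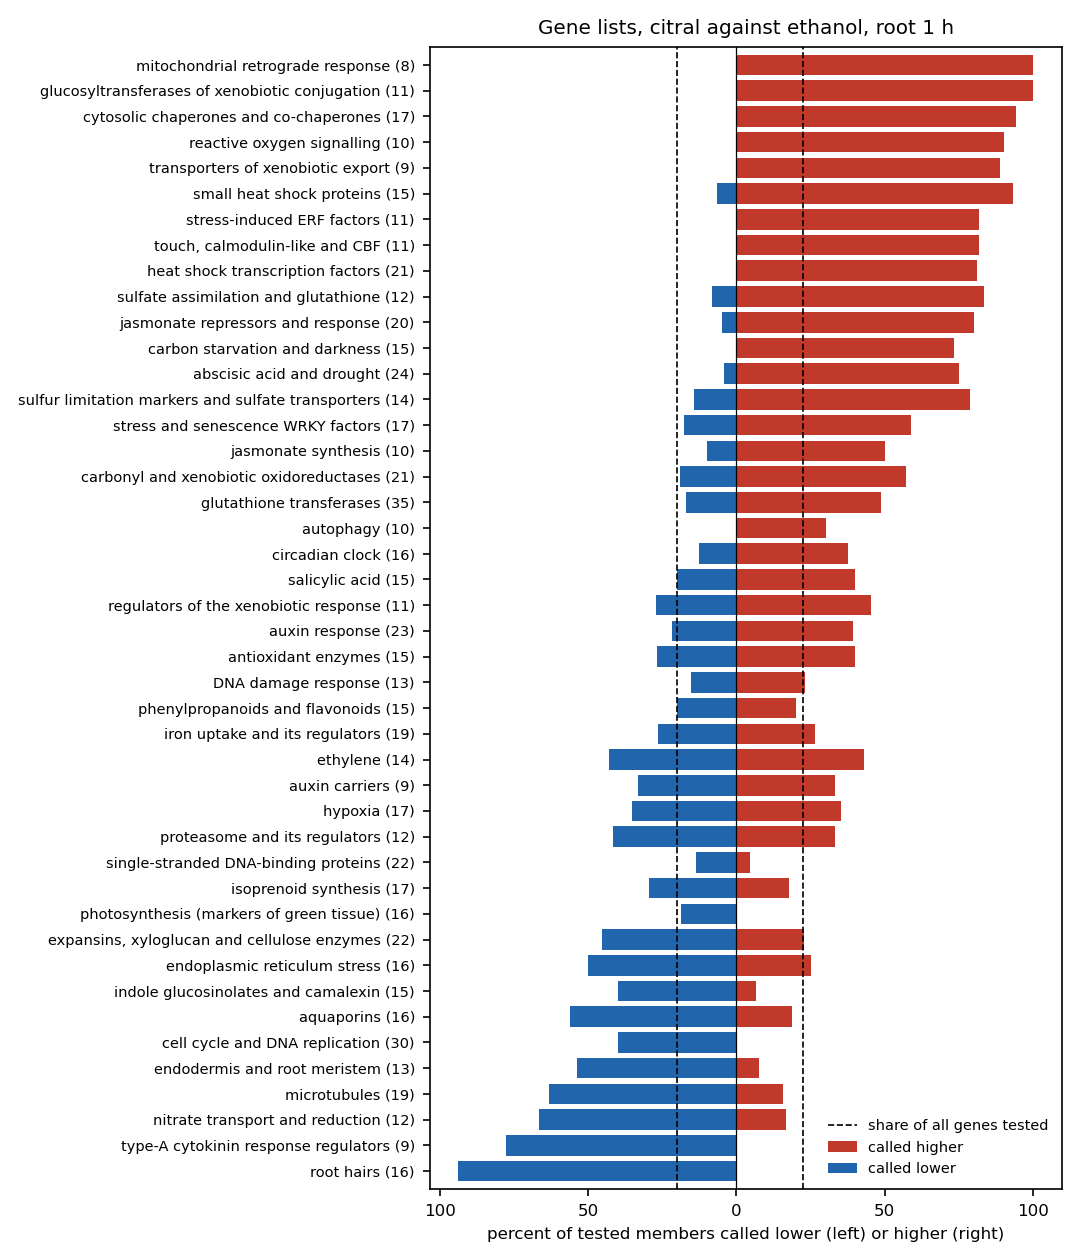
Share of the tested members of each of 44 gene lists called higher (right, red) or lower (left, blue) with citral in roots at 1 h, with the number tested in brackets. Dashed lines mark the shares over all genes tested, 22.5% higher and 20.1% lower. Lists of conjugation, export, chaperones and mitochondrial stress stand at the top and root hair genes at the bottom.

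Sulfur metabolism, which supplies the cysteine for glutathione, rose at most of its steps. Of 12 genes of sulfate assimilation and glutathione synthesis 10 rose, 8 of them at least 2-fold, and the median was log2 1.20. APR3 (AT4G21990), an isoform of adenosine phosphosulfate reductase, the step that controls the pathway, measured 1838, 1915 and 1785 CPM with citral and 215, 177 and 249 CPM with ethanol. Every citral library was at least 7 times above every ethanol library, and the log2 difference was 3.29 ± 0.12 (SE, adjusted p = 5.7e-19). APR2 (AT1G62180) measured 572, 594 and 537 CPM with citral and 78.2, 69.6 and 109 CPM with ethanol and SERAT2;1 (AT1G55920), an enzyme for O-acetylserine, from which cysteine is made, 595, 673 and 634 CPM with citral and 120.0, 100.01 and 114 CPM with ethanol. Both pairs of groups stayed apart, at log2 2.93 ± 0.11 and 2.61 ± 0.065 (SE). The 1 member called lower, OASA1, differed by log2 -0.18 with overlapping groups and lost its call in several settings.

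Markers of sulfur limitation rose with them, 11 of 14 with 10 at least 2-fold, while a root sulfate importer was lower. BGLU28 (AT2G44460), a myrosinase-like glucosidase, measured 51.1, 23.6 and 37.4 CPM with citral, and its ethanol libraries measured 0.0284, 0.0244 and 0.455 CPM, the first 2 at the floor. This was the largest called increase by the rule (log2 9.01 ± 0.91, SE, adjusted p = 2.0e-09). LSU3 (AT3G49570), named for its response to low sulfur, measured 110.0, 88.8 and 76.1 CPM with citral and 2.61, 2.44 and 4.09 CPM with ethanol, and LSU1 (AT3G49580) measured 99.6, 89.1 and 82.3 CPM with citral and 4.71, 4.79 and 7.79 CPM with ethanol. Neither overlapped, at log2 5.10 ± 0.16 and 4.15 ± 0.14 (SE). SULTR1;1 (AT4G08620), a high-affinity sulfate transporter of the root, went the other way: it measured 4.71, 3.03 and 5.97 CPM with ethanol, while 2 citral libraries were at the floor and the remaining one at 1.02 CPM. The fitted difference was log2 -2.66 ± 0.67 (SE, adjusted p = 0.0012). From the summed reads, with values at the floor taken as 0 reads, it was 13.1-fold lower, with an exact interval of 4.45 to 64.2 that covers counting error only.

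Protein folding formed the next response. Genes of cytosolic heat shock proteins and their transcription factors rose: 14 of 15 small heat shock proteins, 16 of 17 cytosolic chaperones and 17 of 21 heat shock factors and related regulators were higher, and only 1 of them all was lower. The medians were log2 4.73, 1.64 and 1.04. With the authors' scaling 14 of the factors were higher and 1 lower. With thinned libraries 10 small heat shock proteins, 16 chaperones and 15 factors were called higher, and the ethanol libraries held few reads of the small heat shock genes.

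The promoter of HSP17.4 (AT3G46230) is shown because it carries the heat shock element, the repeat that heat shock factors bind, in duplicate. It was searched as GAANNTTCNNGAA and its reverse complement, which can overlap a neighbouring repeat. The window is chr3:16984868-16985117, minus strand, in RefSeq TAIR10.1, with the element in capitals.
HSP17.4: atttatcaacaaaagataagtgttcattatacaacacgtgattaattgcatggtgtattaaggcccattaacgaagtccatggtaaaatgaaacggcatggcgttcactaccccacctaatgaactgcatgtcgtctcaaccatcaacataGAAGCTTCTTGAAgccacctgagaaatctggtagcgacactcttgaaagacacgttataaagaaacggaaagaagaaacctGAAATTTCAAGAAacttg
The matches begin 99 and 18 bases before the start. This strict form stands in 2 of the 32 promoters of the small heat shock and chaperone lists, in 0.401% of all promoters and in 1.19% of those of genes raised at least 2-fold. HSP17.4 itself measured 75.4, 50.5 and 56.4 CPM with citral and 1.19, 0.879 and 0.739 CPM with ethanol, with 65.3-fold higher levels under citral (log2 difference 6.03, SE 0.34, adjusted p = 6.3e-16).

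Other small heat shock proteins, which hold unfolding proteins in solution, rose over a wide range of sizes. HSP17.6II (AT5G12020) measured 35.0, 16.4 and 22.0 CPM with citral and 0.227, 0.244 and 0.341 CPM with ethanol, and HSP17.6A (AT5G12030) measured 38.9, 32.8 and 40.7 CPM with citral and 0.341, 0.537 and 0.796 CPM with ethanol. AT1G07400, of the same class, measured 64.3, 80.9 and 78.7 CPM with citral and 0.795, 0.879 and 0.967 CPM with ethanol. None of these groups overlapped, and the log2 differences were 6.37 ± 0.47, 6.04 ± 0.35 and 6.36 ± 0.31 (SE). The exception was AT4G21870, which measured 25.6, 22.1 and 33.4 CPM with ethanol and 0.179, 2.39 and 2.30 CPM with citral, the first at the floor (log2 difference -4.14, SE 0.52, adjusted p = 2.7e-08).

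HSP70 (AT3G12580), a cytosolic member of that chaperone family, measured 540.0, 651 and 528 CPM with citral and 31.8, 20.7 and 25.9 CPM with ethanol (log2 difference 4.69, SE 0.32, adjusted p = 2.8e-12). HSP90.1 (AT5G52640), the stress-induced form of HSP90, measured 384, 462 and 344 CPM with citral and 23.3, 17.2 and 23.2 CPM with ethanol (log2 difference 4.43, SE 0.26, adjusted p = 1.0e-13). ROF2 (AT5G48570), an immunophilin that binds HSP90, measured 176, 198 and 163 CPM with citral and 8.24, 8.35 and 10.97 CPM with ethanol (log2 difference 4.38, SE 0.13, adjusted p = 1.6e-25). In all 3 the groups stayed apart by more than 10-fold. Of the regulators, HSFA6B (AT3G22830) measured 26.1, 22.5 and 36.7 CPM with citral and 1.14, 1.07 and 0.796 CPM with ethanol, HSFA2 (AT2G26150), which prolongs the heat response, 18.2, 22.2 and 20.0 CPM with citral and 0.909, 1.37 and 1.99 CPM with ethanol, and DREB2A (AT5G05410), a factor of drought and heat, 307, 377 and 339.7 CPM with citral and 21.0, 25.3 and 18.8 CPM with ethanol. These 3 rose by log2 4.69 ± 0.26, 3.86 ± 0.30 and 3.84 ± 0.15 (SE).

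The endoplasmic reticulum did not follow the cytosol. Of 16 genes of its stress response, with a median of log2 -0.15, 4 rose and 8 fell. Over all genes 22.5% rose and 20.1% fell. With thinned libraries 3 of the 16 rose and 8 fell. Among the 4 was BIP3 (AT1G09080), at 0.656 to 2.73 CPM with citral and 0.171 to 0.454 CPM with ethanol. It lost its call in several settings, such as thinned libraries or without ethanol replicate 2 (limma, adjusted p = 0.181 and 0.218). Chaperones of the lumen were among the 8 that fell: PDIL1-1 (AT1G21750), a disulfide isomerase, measured 148, 172 and 168 CPM with citral and 230.0, 245 and 269 CPM with ethanol, and CRT1B (AT1G09210), a calreticulin, 132, 136 and 127 CPM with citral and 184, 186 and 209 CPM with ethanol. Both differences were small but without overlap, at log2 -0.60 ± 0.076 and -0.52 ± 0.078 (SE). ERDJ3A (AT3G08970), a co-chaperone, rose from 6.59, 6.06 and 6.82 CPM to 21.4, 33.1 and 24.6 CPM, and the regulator BZIP60 (AT1G42990) from 47.9, 49.3 and 41.9 CPM to 105, 135 and 132 CPM (log2 2.09 ± 0.18 and 1.36 ± 0.081, SE).

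Genes of protein degradation moved in both directions at 1 h. Of 12 proteasome genes and regulators 4 rose and 5 fell, with a median of log2 -0.12. The 5 became 2 without citral replicate 3, ethanol replicate 2 or ethanol replicate 3, and 3 without citral replicate 2. NAC053 (AT3G10500) and NAC2 (AT5G04410), the pair of NAC factors known to raise proteasome genes when the proteasome is blocked, both rose. NAC053 measured 506, 532 and 445 CPM with citral and 96.9, 98.5 and 90.4 CPM with ethanol (log2 difference 2.35, SE 0.073, adjusted p = 1.8e-26). NAC2 measured 166, 175 and 154 CPM with citral and 91.1, 84.1 and 82.8 CPM with ethanol (log2 difference 0.97, SE 0.066, adjusted p = 1.3e-15). The subunit gene RPT2A (AT4G29040) stood at 126, 127 and 113 CPM with citral and 159, 149.5 and 146 CPM with ethanol, log2 -0.29 ± 0.068 (SE). Of 10 autophagy genes 3 rose, against 22.5% of all genes. The 3 were all of the ATG8 family that coats autophagosomes. ATG8E, ATG8B and ATG8H rose by log2 0.83 ± 0.11, 0.65 ± 0.093 and 0.50 ± 0.11 (SE).

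Genes that report reactive oxygen rose, whereas the enzymes that remove it were divided. Of 10 genes of reactive oxygen signalling 9 rose and none fell, and 8 of the 9 had groups that did not overlap, as had 23.4% of all genes in this direction and 48.8% in either. GRX480 (AT1G28480), a glutaredoxin that links redox state and jasmonate, measured 113, 121 and 119 CPM with citral and 3.69, 4.69 and 6.14 CPM with ethanol (log2 difference 4.63, SE 0.16, adjusted p = 1.7e-24). ZAT12 (AT5G59820), a zinc finger factor of oxidative stress, measured 385, 445 and 467 CPM with citral and 25.6, 54.7 and 32.8 CPM with ethanol (log2 difference 3.18, SE 0.18, adjusted p = 6.8e-14). ZAT7 (AT3G46090), its relative, measured 2.50, 4.10 and 5.57 CPM with citral and 0.454, 0.342 and 0.341 CPM with ethanol, a low level but with no overlap. Of 15 antioxidant enzymes 6 rose and 4 fell, and the median of log2 0.10 turned to negative values under the authors' scaling and quantile normalization.

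The antioxidant enzymes that rose included DHAR2 and GPX6. DHAR2 (AT1G75270), the cytosolic dehydroascorbate reductase, measured 555, 531 and 514 CPM with citral and 67.3, 71.0 and 91.3 CPM with ethanol, and GPX6 (AT4G11600), a glutathione peroxidase-like enzyme, 1184, 1111 and 1054 CPM with citral and 322, 307 and 269 CPM with ethanol. All citral libraries were above all ethanol libraries, at log2 2.87 ± 0.092 and 1.88 ± 0.058 (SE). MDAR3 and CAT2, a catalase, were lower, at log2 -0.85 ± 0.094 and -0.40 ± 0.062 (SE).

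All 8 genes of the mitochondrial stress response rose, 7 of them at least 2-fold, with a median of log2 2.43. The eighth, the regulator NAC017, was at log2 0.17 ± 0.072 (SE, adjusted p = 0.049) with groups that overlapped. With libraries thinned, with the authors' scaling and with quantile normalization 7 of the 8 were called higher. The list holds bypasses of the respiratory chain and their regulators. NDB2 (AT4G05020), an alternative NADH dehydrogenase, measured 406, 408 and 365 CPM with citral and 78.1, 69.7 and 72.1 CPM with ethanol (log2 difference 2.48, SE 0.081, adjusted p = 8.5e-26). AOX1A (AT3G22370), the alternative oxidase that works beside it, measured 257, 269 and 242 CPM with citral and 55.3, 46.9 and 39.1 CPM with ethanol (log2 difference 2.46, SE 0.085, adjusted p = 5.1e-25). NDA1 and AOX1D, further members of these enzyme families, stayed under 10 CPM with citral, at 5.36, 4.10 and 4.92 and 9.29, 7.85 and 7.21 CPM, against 0.341, 0.342 and 0.114 and 1.59, 1.56 and 0.682 CPM with ethanol. Neither pair overlapped (log2 3.91 ± 0.44 and 2.52 ± 0.39, SE).

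Hormone and wound signalling moved early and mostly upward for jasmonate, abscisic acid and the ERF factors, and downward for cytokinin. Of 20 jasmonate repressors and response genes 16 rose and 1 fell, with a median of log2 1.44. CYP94B3 (AT3G48520), which inactivates jasmonoyl-isoleucine, measured 97.9, 95.6 and 95.4 CPM with citral and 12.2, 9.82 and 7.73 CPM with ethanol (log2 difference 3.304, SE 0.10, adjusted p = 1.4e-26). JAZ8 (AT1G30135), a stable repressor of the pathway, measured 5.36, 4.78 and 6.56 CPM with citral and 0.454, 0.879 and 0.910 CPM with ethanol, and JAZ10 (AT5G13220), another, 17.5, 13.7 and 13.4 CPM with citral and 4.26, 2.93 and 3.47 CPM with ethanol. Both lay outside the range of the ethanol libraries, at log2 2.72 ± 0.38 and 2.25 ± 0.22 (SE). JAZ4 (AT1G48500) was the member that fell, from 28.9, 19.8 and 23.03 CPM to 4.29, 4.10 and 4.59 CPM (log2 difference -2.23, SE 0.33, adjusted p = 5.0e-07). Of 10 genes of jasmonate synthesis 5 rose and 1 fell. The lipoxygenase gene LOX3 (AT1G17420) measured 1.79, 3.07 and 4.59 CPM with citral and 0.852, 0.537 and 0.341 CPM with ethanol, and OPR3 (AT2G06050), the reductase of jasmonate synthesis, 61.1, 60.4 and 42.6 CPM with citral and 36.3, 36.1 and 35.1 CPM with ethanol, at log2 2.48 ± 0.44 and 0.60 ± 0.097 (SE). JAR1 (AT2G46370), which conjugates jasmonic acid to isoleucine, was lower at 100.4, 99.7 and 109.5 CPM against 170.0, 158 and 157 CPM.

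Touch and early stress genes, known to respond within minutes, were high at 1 h, the earliest time with citral in this series. Of 11 touch, calmodulin-like and CBF genes 9 rose and none fell, as did 9 of 11 stress-induced ERF genes, with medians of log2 2.10 and 1.29. RRTF1 (AT4G34410), an ERF factor of redox stress, measured 118, 121 and 189.5 CPM with citral and 2.44, 6.16 and 3.92 CPM with ethanol, a 25.6-fold difference (log2 difference 4.68, SE 0.32, adjusted p = 2.9e-12). CML37 (AT5G42380), a calmodulin-like calcium sensor, measured 29.3, 32.4 and 43.9 CPM with citral and 1.36, 4.79 and 1.93 CPM with ethanol (log2 difference 3.18, SE 0.28, adjusted p = 1.0e-10). TCH4 (AT5G57560), a touch-induced xyloglucan enzyme, measured 251, 338 and 362 CPM with citral and 40.5, 58.9 and 49.2 CPM with ethanol (log2 difference 2.50, SE 0.19, adjusted p = 4.2e-11). ERF13 and ERF-1 rose by log2 2.03 ± 0.35 and 1.94 ± 0.10 (SE). Calls on CBF1 and CBF2 were lost when the libraries were thinned.

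WRKY factors went both ways, with 10 of 17 higher and 3 lower. WRKY75 (AT5G13080), a factor of phosphate starvation and senescence, measured 322, 410.4 and 371 CPM with citral and 29.3, 23.5 and 18.7 CPM with ethanol (log2 difference 3.98, SE 0.093, adjusted p = 3.1e-30). WRKY40 (AT1G80840), a fast-responding defence and abscisic acid factor, measured 221, 260.5 and 373 CPM with citral and 13.5, 25.9 and 18.1 CPM with ethanol (log2 difference 3.57, SE 0.21, adjusted p = 9.9e-14). Its relative WRKY60 fell from 12.2, 15.5 and 20.5 CPM to 3.93, 1.71 and 2.30 CPM, and WRKY53 from 8.24, 16.2 and 10.9 CPM to 4.64, 3.07 and 4.59 CPM, at log2 -2.59 ± 0.47 and -1.81 ± 0.41 (SE). Salicylic acid genes were divided, with 6 of 15 higher, or 3 without ethanol replicate 2, and 3 lower. Over all genes the shares were 22.5% higher and 20.1% lower. WRKY70 (AT3G56400), which acts between salicylic acid and jasmonate, measured 102, 128 and 78.0 CPM with citral and 11.6, 10.8 and 11.9 CPM with ethanol (log2 difference 3.22, SE 0.21, adjusted p = 5.7e-13). The immune regulators EDS1 and SAG101, which act as partners, were lower, at log2 -0.82 ± 0.12 and -0.97 ± 0.18 (SE).

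Abscisic acid genes rose in number, 18 of 24 with 1 lower and a median of log2 1.30. NCED3 (AT3G14440), the rate-limiting enzyme of abscisic acid synthesis under drought, measured 26.1, 24.2 and 20.0 CPM with citral and 2.27, 1.61 and 1.82 CPM with ethanol (log2 difference 3.78, SE 0.19, adjusted p = 1.7e-19). HAI1 (AT5G59220), a phosphatase induced by the hormone, measured 74.3, 48.1 and 65.2 CPM with citral and 1.76, 1.91 and 2.50 CPM with ethanol (log2 difference 4.94, SE 0.18, adjusted p = 7.5e-24). CYP707A3 (AT5G45340), which breaks the hormone down, was the member that fell, from 110.5, 71.8 and 48.6 CPM to 26.8, 37.2 and 40.7 CPM (log2 difference -1.04, SE 0.20, adjusted p = 8.5e-05). Ethylene genes were balanced, with 6 of 14 higher and 6 lower. The synthase genes ACS11 and ACS6 rose to 19.3, 25.3 and 18.4 and 244, 207 and 290.2 CPM from 4.999, 2.83 and 2.39 and 26.4, 57.8 and 24.6 CPM, at log2 2.84 ± 0.23 and 2.34 ± 0.31 (SE). ACS5 (AT5G65800), another synthase gene, was at the floor in every citral library and at 2.95, 3.47 and 2.73 CPM with ethanol, at least 8.93-fold lower against 3 reads over the group. The oxidase gene ACO1 fell from 59.2, 48.7 and 46.9 CPM to 10.7, 18.4 and 12.5 CPM.

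Auxin genes differed by role. Of 23 response genes 9 rose, all at least 2-fold, and 5 fell. GH3.3 (AT2G23170), which conjugates auxin to amino acids, measured 298, 321 and 268 CPM with citral and 8.46, 11.8 and 9.21 CPM with ethanol, a 26.7-fold difference (log2 difference 4.74, SE 0.16, adjusted p = 3.6e-20). AT1G14130, a dioxygenase known as DAO1 that oxidises auxin, measured 241, 201 and 183 CPM with citral and 16.5, 17.3 and 20.3 CPM with ethanol (log2 difference 3.55, SE 0.086, adjusted p = 3.7e-30). GH3.17 (AT1G28130), of the same family as GH3.3, fell from 80.0, 91.0 and 84.9 CPM to 32.5, 31.7 and 22.6 CPM (log2 difference -1.62, SE 0.16, adjusted p = 8.9e-11). Of the carriers, the efflux gene PIN3 rose and the influx genes LAX3 and AUX1 fell. PIN3 (AT1G70940) measured 98.2, 104 and 108 CPM with citral and 52.0, 39.0 and 42.9 CPM with ethanol, LAX3 (AT1G77690) 47.5, 52.2 and 51.5 CPM with citral and 96.2, 108 and 109 CPM with ethanol and AUX1 (AT2G38120) 97.5, 104 and 91.8 CPM with citral and 145, 142 and 129 CPM with ethanol. Groups stayed apart in all 3, at log2 1.35 ± 0.092, -1.08 ± 0.12 and -0.52 ± 0.081 (SE).

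Cytokinin reporters fell together. The type-A response regulators are rapidly induced by cytokinin and damp its signal, and 7 of the 9 tested fell, all at least 2-fold, against 6.74% of all genes. ARR6 (AT5G62920) measured 11.4, 13.0 and 12.1 CPM with citral and 61.9, 52.6 and 53.6 CPM with ethanol (log2 difference -2.12, SE 0.20, adjusted p = 1.8e-11). ARR3 (AT1G59940) measured 2.50, 2.39 and 2.30 CPM with citral and 10.8, 11.9 and 7.62 CPM with ethanol and ARR7 (AT1G19050) 9.29, 7.17 and 7.87 CPM with citral and 28.2, 25.3 and 20.0 CPM with ethanol, again without overlap (log2 -2.12 ± 0.37 and -1.60 ± 0.28, SE). CKX4 (AT4G29740), a cytokinin oxidase, was among the largest decreases of the table at 1.07, 1.71 and 0.656 CPM against 31.5, 38.1 and 29.2 CPM (log2 difference -4.82, SE 0.51, adjusted p = 5.0e-10). PUP10, annotated as a purine permease, belonged to the same group of largest decreases, with 2 citral libraries at the floor against 21.9, 13.8 and 10.12 CPM with ethanol.

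Nutrient and water uptake genes fell more often than they rose. Of 12 genes of nitrate transport and reduction 8 were lower and 2 higher, and the median was log2 -0.66. NRT1.1 (AT1G12110), the nitrate transporter that also senses nitrate, measured 57.5, 36.9 and 28.9 CPM with citral and 497, 532 and 610.3 CPM with ethanol, so that it was 13.6-fold lower with citral (log2 difference -3.77, SE 0.25, adjusted p = 1.1e-12). NRT2.1 (AT1G08090), the main high-affinity nitrate importer of roots, measured 7.90, 16.03 and 18.9 CPM with ethanol and was at the floor in all 3 citral libraries. It was at least 41.8-fold lower against 3 reads over the group (adjusted p = 9.4e-04). HRS1 (AT1G13300), a nitrate-induced repressor, measured 41.8, 35.8 and 21.3 CPM with citral and 146, 167 and 175 CPM with ethanol (log2 difference -2.36, SE 0.21, adjusted p = 1.6e-10). AT1G68670, annotated as a MYB-like factor, was among the exceptions at 91.1, 97.6 and 86.2 CPM against 46.0, 46.5 and 41.5 CPM.

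Of 16 aquaporins 9 fell, 6 of them at least 2-fold, and 3 were called higher by small amounts. Under the authors' scaling 10 were lower and none higher. PIP1;1 (AT3G61430), a plasma membrane water channel, measured 169, 232 and 166 CPM with citral and 693, 654 and 602 CPM with ethanol (log2 difference -1.78, SE 0.11, adjusted p = 1.2e-15). PIP2;2 (AT2G37170) measured 196, 229 and 171 CPM with citral and 682, 614 and 577 CPM with ethanol (log2 difference -1.62, SE 0.12, adjusted p = 2.5e-12). TIP2;2, of the vacuolar membrane, differed by log2 -1.51 ± 0.20 (SE). Iron genes divided evenly, with 5 of 19 higher and 5 lower, against 22.5% and 20.1% of all genes. The 5 lower became 3 without any 1 of the citral libraries or without ethanol replicate 2. The transcription factor genes BHLH39 and BHLH101, which are induced by iron deficiency, rose to 58.9, 71.7 and 66.2 and 9.29, 11.3 and 15.7 CPM from 9.49, 12.2 and 14.3 and 2.39, 2.49 and 1.99 CPM. F6'H1 (AT3G13610), which makes the iron-binding coumarins, fell from 159.6, 211 and 226 CPM to 63.6, 59.1 and 46.2 CPM, and the copper transporter gene COPT2 from 52.0, 54.3 and 47.9 CPM to 16.4, 17.8 and 8.85 CPM. The call of MYB72 as higher rests on citral libraries all at the floor and is counted among the 5 but is not a level that was seen to rise.

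Hypoxia genes did not move as a unit, with 6 of 17 higher and 6 lower. HRE2 (AT2G47520), an ERF factor of low oxygen, measured 18.6, 27.0 and 22.6 CPM with citral and 0.341, 0.342 and 0.398 CPM with ethanol (log2 difference 5.93, SE 0.40, adjusted p = 2.2e-15), whereas its relative HRE1 (AT1G72360) measured 11.4, 15.0 and 18.4 CPM with citral and 107, 99.8 and 128 CPM with ethanol (log2 difference -2.81, SE 0.17, adjusted p = 6.8e-17). The fermentation genes PDC1 and ADH1 rose. PDC1 (AT4G33070) measured 123, 104 and 104 CPM with citral and 42.5, 19.9 and 18.3 CPM with ethanol and ADH1 (AT1G77120) 92.9, 61.1 and 58.7 CPM with citral and 24.03, 19.7 and 22.1 CPM with ethanol, at log2 2.37 ± 0.14 and 1.76 ± 0.19 (SE). SUS4, a sucrose synthase gene, was lower, at log2 -1.27 ± 0.29 (SE).

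Root hair genes had the highest share of lower calls among the 44 lists. Of 16 genes, 15 fell at least 2-fold and the last, GL2, which keeps hair growth off in non-hair cells, did not pass at log2 -0.33. Across all genes 20.1% were called lower and 6.74% at least 2-fold lower. The median was log2 -2.67. Every one of the 15 had its highest citral library below its lowest ethanol library, as had 25.4% of all genes. The 15 are expressed in epidermal cells that bulge into hairs. In bulk roots fewer cells of a type and less RNA per cell cannot be told apart.

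The promoters of 4 of them are shown because they carry the root hair element, the sequence bound by RSL factors of the bHLH family through which hair genes are known to be driven. Windows are 250 bases before the start in RefSeq TAIR10.1, chr1:4276255-4276504, chr3:23182472-23182721 and chr1:20504651-20504900 on the plus strand and chr4:993040-993289 on the minus strand, with the element in capitals.
EXPA7: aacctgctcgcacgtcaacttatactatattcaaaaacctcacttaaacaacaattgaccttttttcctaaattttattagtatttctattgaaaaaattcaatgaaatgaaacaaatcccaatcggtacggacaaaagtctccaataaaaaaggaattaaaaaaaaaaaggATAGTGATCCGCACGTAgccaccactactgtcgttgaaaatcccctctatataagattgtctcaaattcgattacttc
PRP3: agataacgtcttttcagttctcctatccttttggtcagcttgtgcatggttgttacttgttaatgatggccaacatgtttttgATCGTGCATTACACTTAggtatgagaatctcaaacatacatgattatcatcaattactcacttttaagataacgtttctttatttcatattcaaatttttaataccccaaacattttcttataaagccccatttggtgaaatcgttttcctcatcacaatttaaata
RHS13: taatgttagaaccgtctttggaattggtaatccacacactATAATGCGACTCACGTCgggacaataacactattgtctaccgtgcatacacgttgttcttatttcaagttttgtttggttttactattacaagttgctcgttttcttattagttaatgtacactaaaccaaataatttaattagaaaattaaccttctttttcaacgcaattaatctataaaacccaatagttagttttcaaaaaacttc
PRP1: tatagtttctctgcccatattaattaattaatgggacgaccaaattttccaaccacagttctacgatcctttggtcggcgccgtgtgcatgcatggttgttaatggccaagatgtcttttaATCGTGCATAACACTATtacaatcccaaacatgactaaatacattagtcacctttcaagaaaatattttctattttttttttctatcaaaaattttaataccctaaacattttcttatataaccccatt
The element begins 78, 167, 210 and 129 bases before the start. Searched on both strands in its published degenerate form, it stands in 7 of the 16 promoters of the list, in 0.787% of all promoters, in 2.22% of those of genes lowered at least 2-fold and in 0.716% of those raised as much. Some genes of the list were first found through this element, so its frequency among them is no independent observation.

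PRP3 (AT3G62680), a structural wall protein of the hair, measured 5.36, 3.76 and 1.97 CPM with citral and 31.5, 33.9 and 37.6 CPM with ethanol (log2 difference -3.23, SE 0.63, adjusted p = 1.5e-04). RHS13 (AT4G02270), an extensin-like wall protein, measured 2.86, 4.78 and 0.984 CPM with citral and 25.9, 31.9 and 34.7 CPM with ethanol (log2 difference -3.55, SE 0.57, adjusted p = 8.7e-06). PRP1 (AT1G54970), of the same family as PRP3, measured 10.7, 14.3 and 20.6 CPM with ethanol and 0.179, 1.02 and 0.984 CPM with citral, the first at the floor (log2 difference -4.19, SE 0.92, adjusted p = 4.6e-04). EXPA7 (AT1G12560), a hair-specific expansin, measured 6.79, 6.15 and 2.95 CPM with citral and 40.6, 36.7 and 29.6 CPM with ethanol, and COBL9 (AT5G49270), a GPI-anchored protein of hair growth, 7.14, 4.78 and 2.62 CPM with citral and 25.4, 24.5 and 24.5 CPM with ethanol. In each gene all citral libraries lay below all ethanol libraries. Set by depth alone, COBL9 stood at 18.1 to 21.6 CPM in untreated roots and at 11.5 to 12.7 CPM in ethanol roots of 0 h, and the citral libraries of 1 h, at 2.37 to 6.16 CPM, were below both. Replicate 1 of the 0 h ethanol roots held only 0.260 M reads, so its level rests on few reads. The 7 green markers summed to 77.5 to 827.4 CPM across that 0 h group. The 4 root markers fixed for the organ check, among them COBL9 and EXPA7, summed on the same scale to 80.7 to 120.5 CPM with citral, 242.8 to 263.9 CPM with ethanol and 17.8 to 34.3 CPM in the shoots of 1 h. In EXPA7 and PRP3 the citral libraries varied more in proportion among themselves than the ethanol libraries. The third was the lowest in both genes and the levels differed by at least 2-fold, on few reads. Regulators of hair growth fell with the wall genes. RSL4 (AT1G27740), the bHLH factor that sets hair length, measured 5.0001, 1.71 and 1.31 CPM with citral and 18.7, 17.9 and 13.4 CPM with ethanol, and RHD6 (AT1G66470), which acts above it, 5.0001, 2.05 and 4.59 CPM with citral and 12.2, 15.8 and 13.6 CPM with ethanol (log2 -2.85 ± 0.40 and -2.05 ± 0.30, SE).

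**Figure D3:**
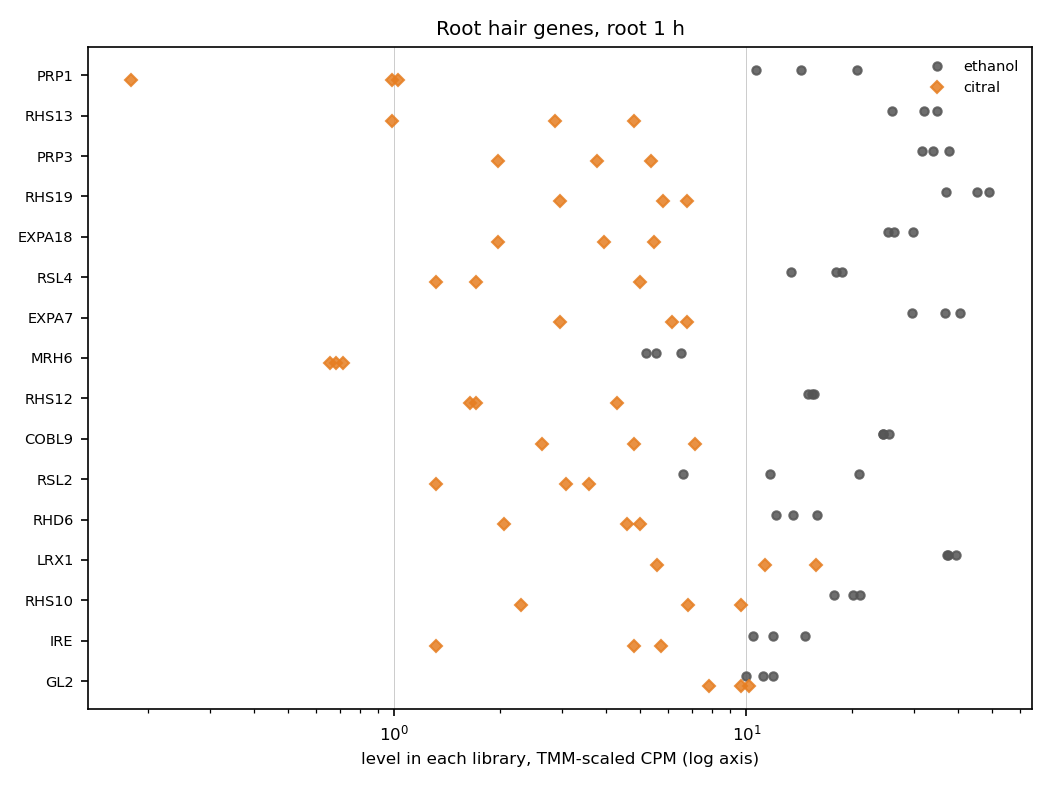
Level of each of 16 root hair genes in the 6 libraries, in CPM on a log axis, with 1 circle per ethanol library and 1 diamond per citral library. In 15 genes the 3 citral libraries lie below the 3 ethanol libraries, and in GL2 the groups overlap.

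The median difference of the root hair genes was lower at 3, 6 and 12 h than at 1 h, and a difference between times was tested only for 3 h. Some of the later values include citral libraries at the floor, as for PRP1. The median of the list was log2 -4.76 at 3 h, -4.52 at 6 h, -4.12 at 12 h and -2.72 at 24 h, each against ethanol of the same hour. COBL9 went from log2 -2.39 at 1 h to -5.48 at 3 h, and the difference between the 2 times passed (log2 -3.09, adjusted p = 0.0039). The same test passed for 6 of the 16 genes, all in that direction, against 10.6% of all genes.

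Other root structures showed fewer decreases. Of 13 endodermis and meristem genes 7 fell and 1 rose. The 7 include genes of the Casparian strip, the wall barrier of the endodermis. CASP4 (AT5G06200) measured 2.50, 4.78 and 2.95 CPM with citral and 14.3, 19.5 and 21.9 CPM with ethanol (log2 difference -2.45, SE 0.35, adjusted p = 2.4e-07). PER64 (AT5G42180), a peroxidase of the strip, measured 52.9, 60.4 and 28.5 CPM with citral and 115, 131 and 119 CPM with ethanol. Groups did not overlap in either gene, and CASP1 differed by log2 -1.05 ± 0.17 (SE). The stem cell and meristem genes WOX5, PLT1, PLT2 and SCR did not pass, at log2 0.078, 0.05, -0.048 and -0.21.

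Expansin, xyloglucan and cellulose enzyme genes went down more often than up, with 10 of 22 lower and 5 higher. Without ethanol replicate 2 the 5 became 2. With thinned libraries 8 were lower and 3 higher. EXPA14 (AT5G56320), an expansin, measured 5.36, 2.73 and 1.97 CPM with citral and 21.1, 32.1 and 37.3 CPM with ethanol (log2 difference -3.27, SE 0.39, adjusted p = 8.6e-09). EXPA8 and XTH31 fell to 2.14, 0.683 and 1.31 and 10.0002, 11.3 and 8.20 CPM from 10.6, 10.2 and 7.62 and 28.8, 54.1 and 52.7 CPM. XTH23 (AT4G25810), a xyloglucan enzyme, rose instead, measuring 193, 246 and 226 CPM with citral and 27.0, 24.2 and 25.6 CPM with ethanol (log2 difference 3.17, SE 0.12, adjusted p = 1.7e-21). XTH18 (AT4G30280), a root enzyme of the same family, measured 277, 361 and 265 CPM with citral and 128, 92.5 and 96.0 CPM with ethanol (log2 difference 1.65, SE 0.10, adjusted p = 2.0e-15).

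The microtubule genes, of interest because citral is known to disrupt microtubules, fell in number but by small amounts. Of 19 genes 12 fell and 3 rose, none of the rises over 2-fold and 1 of the decreases, with a median of log2 -0.23. TUB1 (AT1G75780), a beta-tubulin, measured 24.6, 38.6 and 26.2 CPM with citral and 63.9, 72.2 and 69.9 CPM with ethanol (log2 difference -1.25, SE 0.14, adjusted p = 1.9e-09). TUB8 (AT5G23860) measured 59.6, 54.3 and 64.3 CPM with citral and 104, 118 and 122 CPM with ethanol and TUB5 (AT1G20010) 61.1, 81.3 and 68.9 CPM with citral and 121, 123 and 116 CPM with ethanol, with no overlap and log2 differences of -0.98 ± 0.094 and -0.79 ± 0.091 (SE). TUA1 (AT1G64740), an alpha-tubulin, was higher at 42.9, 44.4 and 47.2 CPM against 35.6, 33.2 and 32.8 CPM (log2 0.43 ± 0.093, SE). The other rises, of TUB7 and MOR1, were lost under the authors' scaling, which gave 1 higher and 14 lower, and under quantile normalization.

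Cell division genes were lower in part. Of 30 genes 12 fell and none rose, with a median of log2 -0.39, and 7 were called lower with thinned libraries. Without citral replicate 1 or 2 the 12 became 7, and without ethanol replicate 2 they became 6. CYCA1;1 (AT1G44110), a cyclin of S phase and mitosis, measured 3.21, 2.73 and 3.93 CPM with citral and 7.73, 11.3 and 9.44 CPM with ethanol (log2 difference -1.66, SE 0.35, adjusted p = 1.7e-04). CDT1A (AT2G31270), which licenses DNA replication, measured 8.93, 7.85 and 8.85 CPM with citral and 14.4, 16.2 and 16.8 CPM with ethanol (log2 difference -0.90, SE 0.21, adjusted p = 6.2e-04). CYCB1;2 (AT5G06150), a mitotic cyclin, differed by log2 -0.90 ± 0.18 (SE), and shares a near-identical copy in the genome with which reads may be split. TSO2 (AT3G27060), a ribonucleotide reductase subunit of the DNA damage list, fell from 37.9, 45.7 and 43.2 CPM to 12.1, 18.1 and 18.0 CPM (log2 difference -1.47, SE 0.15, adjusted p = 9.1e-11). Of the 13 genes of that list 3 rose and 2 fell, against 22.5% and 20.1% of all genes.

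Of 22 single-stranded DNA-binding proteins 1 rose and 3 fell, and the 1 was the exception of the list by size. RPA2 (AT2G24490), the middle subunit of replication protein A, which coats single-stranded DNA, measured 126, 134 and 122 CPM with citral and 15.3, 15.5 and 16.03 CPM with ethanol. The libraries within a group agreed closely, and the gene was 8.20-fold higher with citral (log2 difference 3.04, SE 0.084, adjusted p = 2.6e-28). Its overlapping neighbour on the opposite strand is AT2G24480. The large subunit gene RPA1D (AT5G61000) measured 5.0001, 6.83 and 6.56 CPM with citral and 14.5, 17.1 and 17.1 CPM with ethanol and was lower (log2 difference -1.42, SE 0.26, adjusted p = 1.7e-05). RPA1B, another, measured 4.64, 2.73 and 5.57 CPM with citral and 7.84, 8.55 and 7.90 CPM with ethanol and differed by log2 -1.003 ± 0.29 (SE), or by -0.67 and with no call without citral replicate 2. RPA3A, of the small subunit, overlapped between the groups at 2.50, 4.78 and 1.97 CPM with citral and 4.77, 5.96 and 5.004 CPM with ethanol, and lost its call without any 1 of 4 libraries. The other 18 members did not pass and lay between log2 -0.48 and 0.38.

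Energy and time-of-day genes showed smaller changes. Of 15 genes of carbon starvation and darkness 11 rose and none fell, 3 of them at least 2-fold, with a median of log2 0.59. Quantile normalization gave 7 higher and 2 lower, and 6 were higher without ethanol replicate 2 or 3. DIN11 (AT3G49620), named as dark-inducible, measured 24.6, 35.5 and 38.4 CPM with citral and 6.13, 5.91 and 6.71 CPM with ethanol (log2 difference 2.43, SE 0.24, adjusted p = 7.3e-10). TPS11 (AT2G18700), of the trehalose phosphate synthase family and known to rise on starvation, measured 341, 364 and 308 CPM with citral and 137, 98.2 and 83.6 CPM with ethanol (log2 difference 1.77, SE 0.14, adjusted p = 5.6e-11). Of 16 clock genes 6 rose and 2 fell. RVE1 (AT5G17300), a MYB factor of the morning, measured 22.5, 24.2 and 25.9 CPM with citral and 12.6, 7.82 and 6.60 CPM with ethanol, and BOA (AT5G59570), of the evening, 33.2, 36.9 and 46.2 CPM with citral and 17.04, 14.3 and 12.8 CPM with ethanol (log2 1.60 ± 0.15 and 1.42 ± 0.12, SE). The core genes CCA1 and LHY did not pass, at log2 0.65 and -0.55, and TOC1 differed by 0.31 ± 0.068 (SE). Of 16 photosynthesis genes 3 were lower and none higher, against 20.1% and 22.5% of all genes.

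Genes of terpenoid synthesis, the route by which plants make compounds like citral, moved in both directions. Of 17 genes 3 rose and 5 fell, against 22.5% and 20.1% of all genes tested, and with quantile normalization 2 rose and 8 fell. DXS (AT4G15560), the entry enzyme of the plastid route, measured 211, 248 and 238 CPM with citral and 98.6, 93.6 and 95.6 CPM with ethanol (log2 difference 1.30, SE 0.067, adjusted p = 2.6e-19). HDR (AT4G34350), the last enzyme of that route, measured 358, 223 and 264 CPM with citral and 141, 153 and 121 CPM with ethanol (log2 difference 0.90, SE 0.091, adjusted p = 2.5e-10). MVK (AT5G27450), mevalonate kinase of the cytosolic route, measured 30.0, 43.0 and 40.002 CPM with citral and 84.1, 87.5 and 83.5 CPM with ethanol and was lower (log2 difference -1.20, SE 0.11, adjusted p = 8.1e-12). DXR, between DXS and HDR, was lower, at log2 -0.27 ± 0.08 (SE).

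Of 15 genes of indole glucosinolates and camalexin 6 fell, or 3 without ethanol replicate 2 or 3, and 1 rose. MYB34 (AT5G60890), an activator of indole glucosinolate synthesis, measured 20.0, 24.2 and 29.2 CPM with citral and 66.5, 75.6 and 78.2 CPM with ethanol (log2 difference -1.63, SE 0.20, adjusted p = 3.5e-08). CYP83B1 (AT4G31500), of the core pathway, measured 316, 406 and 340.3 CPM with citral and 778, 645 and 589 CPM with ethanol (log2 difference -0.87, SE 0.081, adjusted p = 1.6e-11). PAD3 (AT3G26830), which completes camalexin, rose from 15.2, 13.0 and 12.5 CPM to 36.1, 22.2 and 20.7 CPM (log2 0.95 ± 0.19, SE). Of 15 phenylpropanoid and flavonoid genes 3 were called higher and 3 lower, near the 22.5% and 20.1% of all genes. The lower ones include 4CL1, a ligase of the general pathway, and PAL2, at log2 -0.67 ± 0.074 and -0.36 ± 0.095 (SE). The calls of DFR and LDOX as higher rest on citral libraries all at the floor, and no rise was measured for them. Over all genes, 25 calls of higher expression had all 3 citral libraries at the floor.

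Several of the largest changes lie outside these lists. WRKY10 (AT1G55600), a WRKY factor known from the seed, measured 6.79, 3.76 and 7.21 CPM with citral and was at the floor in all 3 ethanol libraries, at least 109.8-fold higher against 3 reads over the group. AT3G54530, an uncharacterized protein, measured 11.4, 14.3 and 6.89 CPM with citral and 0.341, 0.0977 and 0.0284 CPM with ethanol, the last at the floor (log2 difference 6.46, SE 0.56, adjusted p = 2.2e-12). On the falling side AT5G40590, a C1 domain protein, measured 1.43, 2.05 and 1.64 CPM with citral and 89.0, 95.7 and 78.6 CPM with ethanol, the largest decrease by the rule (log2 difference -5.62, SE 0.41, adjusted p = 1.4e-14). AT2G36690, a dioxygenase, measured 1.43, 3.41 and 5.57 CPM with citral and 95.3, 87.2 and 70.2 CPM with ethanol, and AT3G46270, annotated as a receptor kinase-like protein, 2.50, 1.71 and 1.97 CPM with citral and 88.6, 79.5 and 61.8 CPM with ethanol. Both stayed apart between groups, although AT3G46270 has a near-identical copy, AT3G46250. AT2G39040, a peroxidase, CYP718, a cytochrome P450, and AT5G47980, an acyltransferase, each had at least 1 citral library at the floor and a decrease beyond log2 -5. RAP2.11 (AT5G19790), an ERF factor known in Arabidopsis from low potassium, was at the floor in all citral libraries against 7.84, 8.75 and 8.93 CPM with ethanol, at least 24.9-fold lower. AT5G62420, an oxidoreductase, and AT1G44020, another C1 domain protein, were at least 35.9-fold and 22.2-fold lower in the same sense.

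**Figure D4:**
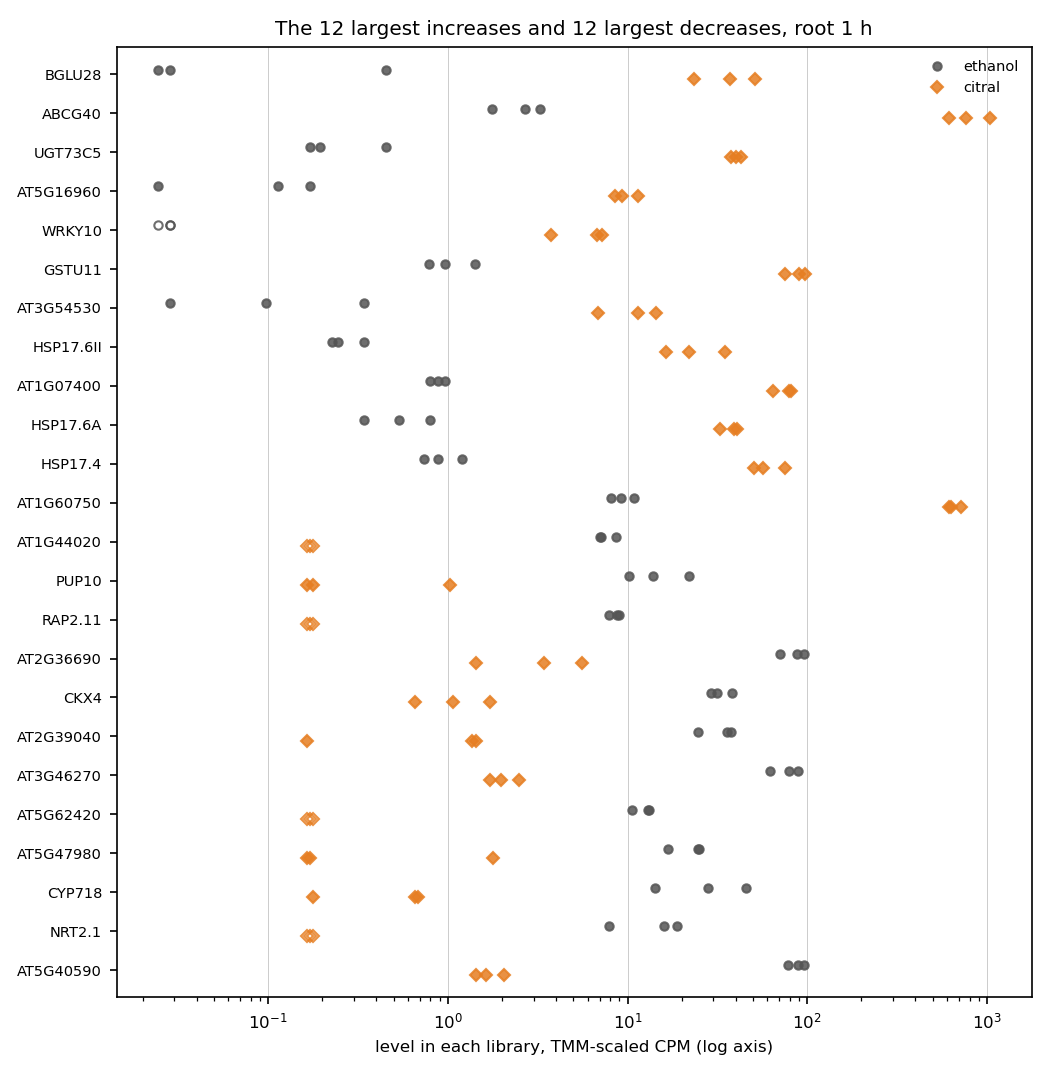
Level of the 12 genes with the largest called increases and the 12 with the largest decreases in the 6 libraries, in CPM on a log axis, with 1 circle per ethanol library and 1 diamond per citral library. Open symbols mark genes whose 3 libraries of a group are at the floor. The floor lies further right for citral, whose libraries are shallower, so that the decreases to it are lower bounds.

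How far the first hour differed from the third was tested directly. The response at 3 h minus that at 1 h passed for 3875 of 20147 genes (19.2%), 1730 higher (8.59%) and 2145 lower (10.6%) at 3 h. In the ethanol group of 3 h, 1 library holds only 0.188 M reads, and its weight in the fit was 0.597. Of the 1707 genes raised at least 2-fold at 1 h, 1176 were called higher at 3 h, 1138 at 6 h, 812 at 12 h and 742 at 24 h, with medians of log2 1.37, 1.00, 0.50 and 0.43. Of the 1357 lowered as much, 1089, 978, 760 and 698 were called lower at those hours, with medians of log2 -1.87, -1.20, -0.70 and -0.67. Across all genes tested, 22.3%, 23.3%, 18.1% and 20.5% were called higher at these times and 24.8%, 25.4%, 17.9% and 18.1% lower.

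Groups of genes differed in when they moved. Proteasome genes rose later: 10 of 12 had a higher response at 3 h than at 1 h and none a lower one. RPT3 (AT5G58290), which is outside that list and was named for its small p, an ATPase of the proteasome's regulatory particle, measured 224, 207 and 223 CPM with citral and 214, 212 and 189 CPM with ethanol at 1 h, no difference that passed (log2 0.06), against log2 1.42 at 3 h (difference 1.36, adjusted p = 2.8e-12). Carbon starvation genes rose further in 7 of 15 and ATG8 and other autophagy genes in 6 of 10, with none lower. Cytosolic chaperones had a smaller response at 3 h in 8 of 17 and none a larger one, and genes of endoplasmic reticulum stress were lower at 3 h in 10 of 16. Of the touch and ERF genes, 11 each, the response was lower at 3 h for 4 and 2 and higher for 1 and 1. RRTF1 went from 4.68 to 0.87 (adjusted p = 0.013), with 1 shallow ethanol library of 3 h at the floor. Cell cycle genes fell further in 13 of 30. Of the 35 glutathione transferases the response at 3 h was lower than at 1 h for 13 and higher for 7, and of 11 glucosyltransferases it was lower for 4 and higher for none. The median of the transporters of xenobiotic export was log2 2.22 at 1 h and 0.65 at 24 h. Among single genes, ABCG40 was at log2 8.16, 6.36, 5.22 and 4.19 at 3, 6, 12 and 24 h, and GSTU24 at 4.17, 3.93, 2.63 and 1.75.

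The root response at 1 h was also tested against that of the shoots of the same hour. The difference passed for 3517 of 21092 genes (16.7%), 1942 higher (9.21%) and 1575 lower (7.47%) in roots. Root ethanol replicate 2 carried a weight of 3.07 in the fit of the root libraries alone. Without that library the difference passed for 2191, and without library weights for 1862. In 464 of the 3517, 427 of these lower in roots, all 3 shoot citral libraries were at the floor. There the value in the shoots is set by the read depth. Without such genes 3053 remained of 19562 (15.6%), 1905 higher (9.74%) and 1148 lower (5.87%), and the list counts that follow are over these. In 203 genes both organs passed and moved in opposite directions, 126 of them upward in roots.

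Many signalling genes had the higher response in roots and many detoxification genes in shoots. Of the jasmonate repressor and response list 13 of 20 were higher in the root response and none lower, against 9.74% and 5.87% of all genes, as were 8 of 12 ERF genes, 8 of 10 touch genes, 8 of 13 sulfur limitation genes and 5 of 8 mitochondrial stress genes. RRTF1 was at log2 -1.59 in shoots, and the difference of the organs was 6.28 (adjusted p = 2.0e-04). Of the hypoxia genes 10 of 17 were higher and 2 lower in roots, among them PDC1, which differed in shoots by log2 -2.65 (difference 5.02, adjusted p = 1.2e-09). The reverse held for 9 of 33 glutathione transferases, 9 of 21 oxidoreductases and 6 of 13 glucosyltransferases, against 1 in each list the other way. CYP81D11 rose by log2 8.70 in shoots and GSTU24 by 8.03, both more than in roots (adjusted p = 8.5e-10 and 1.9e-06). No cell cycle gene of 30 differed between the organs in this test. The root hair list cannot be compared, since 14 of its 16 genes were at the floor in the shoot citral libraries.

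**Figure D5:**
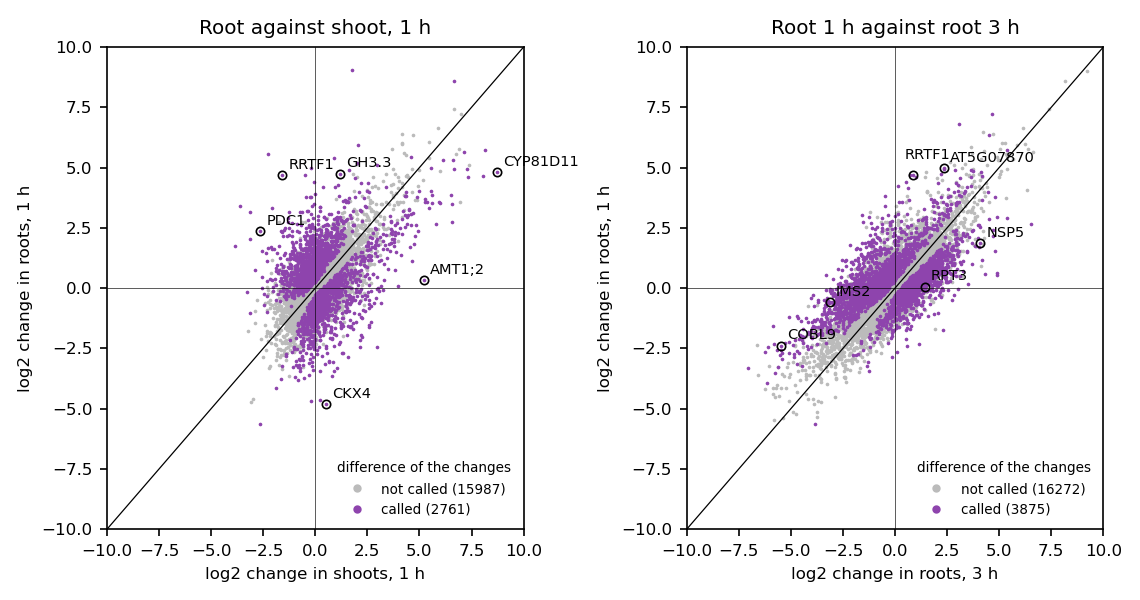
Root change at 1 h (vertical, log2) against the change in shoots at 1 h (left) and in roots at 3 h (right), each dot 1 gene tested in both fits. Purple dots are genes whose difference between the 2 changes was called, and the line marks equal change. The left plot leaves out genes at the floor in all 3 shoot citral libraries. CYP81D11 lies right of the line on the left, and RRTF1 and PDC1 lie above it.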

How the data were processed

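RNA-seq was analysed for 36 root libraries (12 groups of 3) and, for the organ difference, all 72. The authors deposited 1 table of 22122 loci and 72 columns, with 0 columns not used here. The values are scores that the authors deposited after scaling and rounding, as read from the values themselves: whole numbers of 1 or more, taken here as reads multiplied by 1 factor per library (0.6655 to 1.311). The factor was inferred from which low values are frequent or missing. Where it is above 1, at least 98.7% of values from 2 to 150 are ones that such rounding gives, while at 1 or below, as in the 6 libraries, every whole number can be. TAIR10 is named in the submitters' processing notes, while the sources used here do not give aligner, counter, strand or scaling, and RNA was made with RNeasy and TruSeq kits per the labels' protocols.

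Division by that factor gave reads, with a value at the floor set to 0.5 read. CPM came from trimmed mean of M-values scaling (TMM; 30% and 5% trimmed, loci averaging at least 10 CPM). Genes at 1 CPM or more and above the floor in at least 3 libraries were fitted with limma's voom with library quality weights and robust moderation, 1 mean per group, and Benjamini-Hochberg adjustment over all genes tested. Tests were two-sided. A planned count test was not run, since reads at the floor are not known. Recovery and fit were tested on simulated data. Precision is limited by depth, with recovered totals of 0.188 to 20.6 M reads in the series. No 2 libraries of either 1 h root group held identical values, and in every pair the spread exceeded sampling noise. Gene positions and promoters are from RefSeq TAIR10.1, in which 21979 loci were found.

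The libraries and the gene lists were chosen with earlier results of these data known, so counts over lists are no independent support. Named are the 12 largest called changes per direction with groups that do not overlap and 5 CPM or more in the higher group, up to 3 called members per list and direction, every single-stranded DNA-binding protein, per direction the 5 genes of smallest p in each tested difference, and marker genes. AER, OPR1, NCED3, AOX1A, JAZ10, TCH4, SCL14, RSL4, RHD6, EXPA7, ALDH7B4 and GSTF8 were chosen after their values were seen. Alternatives were other scalings, weights, filters, models, thinning (seed 7) and leaving out each library. Software was R 4.3.3, limma 3.58.1, Python 3.11.15, pandas 2.3.3, numpy 2.4.6, scipy 1.17.1, matplotlib 3.10.9 and pysam 0.24.0.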

Additional observations from a re-analysis of the deposited data

Results flagged for a closer look

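Differences between responses were tested directly, across 20147 genes for time and 21092 for organ. The root response at 3 h differed from that at 1 h for 3875 genes. The root response at 1 h differed from that of shoots for 3517 genes, or for 3053 where at least 1 shoot citral library was above the floor. The 5 genes of smallest p in each direction are given here as log2 differences of the citral effect.

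Between organs the effect was lower in roots for AMT1;2, an ammonium transporter, by a difference of -4.88, for GRXS13, a glutaredoxin, of -3.90, for AT1G17860, a protease inhibitor of the Kunitz family, of -3.11, for AT3G13310, a DnaJ-domain chaperone, of -2.83 and for CRK3, a kinase, of -2.02. It was higher in roots for AT2G43500, an RWP-RK family regulator, at 3.18, for PIN3, an auxin efflux carrier, at 2.23, for 2-Cys Prx B, a peroxiredoxin of plastids, at 1.86, for IAA13, an auxin repressor, at 1.79 and for TRM19 at 1.64. AMT1;2 was at log2 0.33 in roots and 5.22 in shoots, and PIN3 at 1.35 and -0.88. IAA13, TRM19 and AT1G17860 overlap a neighbour on the opposite strand.

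Between 3 h and 1 h in roots the effect was lower at 3 h for GSTU26 by a difference of -2.86, for AT5G07870, an acyltransferase family member, of -2.65, for IMD1, a dehydrogenase of leucine synthesis, of -2.57, for IMS2 of -2.54 and for AT5G17000, an alkenal reductase-like gene, of -1.98. It was higher at 3 h for NSP5, a nitrile specifier protein, at 2.24, for the proteasome genes AT5G20000 at 2.005, AT5G23540 at 1.39 and RPT3 at 1.36, and for SBP1, a selenium-binding protein, at 1.19. AT5G20000 has a near-identical copy, AT5G19990, with which reads may be split. GSTU26 was at log2 0.19 at 1 h and -2.67 at 3 h, and NSP5 at 1.85 and 4.09. The direction of SBP1 at 1 h itself turned under quantile normalization.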

How the results depend on the processing

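Counts of calls stayed within 1.5 times the reported ones under most alternatives. The exceptions were limma-trend, with 5159 genes called at a pseudocount of 0.5 (2708 higher, 2451 lower) and 5132 at 0.1 (2679 higher, 2453 lower), and the organ difference, with 1862 genes without library weights and 2191 without ethanol replicate 2. The causes were not tested. Leaving out 1 library of the 6 at a time gave 5922 to 8024 genes called, 3117 to 4226 higher and 2805 to 3945 lower, 402 to 458 calls among list members (471 with all), 2814 to 3857 for 3 h minus 1 h and 2191 to 3165 for the organ difference. The lowest of each range was without ethanol replicate 2. Of 242 named genes called at 1 h, 191 kept call and direction in all 17 settings that could be fitted for them, and the lowest count of leaving out a library was 208 and the highest 228. Under quantile normalization 4 reversed, PIP1;3 to -0.086, HMGR1 to -0.098, PIP2;7 to -0.078 and SBP1 to -0.066 on the log2 scale. Of 1258 list counts recomputed, 121 moved by more than 1.5 times, mostly of counts under 5. Taking the floor as 0 reads was chosen after seeing the data and gave 8389 calls, and 3034 for the organ difference. No paired analysis was possible because the labels number no replicates. The planned count test was not run, since reads at the floor are not known. Depth limits genes at a few CPM, of which a citral library holds only a few reads.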
